A study of Caenorhabditis elegans with 6 samples.

Results

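The PAR polarity genes of the nematode Caenorhabditis elegans were followed in embryos that lack a microRNA cluster. They were chosen by name, as the rows of the deposited normalized table whose symbol entry gives par-1, par-2, par-3, par-4, par-5, par-6, pkc-3, cdc-42, gpr-1 or gpr-2. These 10 genes, of 18000 named on the array, were read by 21 of 22548 features, a feature being an Affymetrix probe set that carries 1 intensity per array. The samples were 3 arrays of the mir-35-41(nDf50) mutant and 3 of wild type N2, all from whole bodies of mixed-stage embryos grown at 20 degrees Celsius. The mutant carries a deletion of the clustered microRNAs mir-35 to mir-41, and its strain is labelled VT2935 lacking nEx1187, by the naming rules an extrachromosomal array that these animals do not have. The wild type strain is N2, and both genotypes shared growth on yolk-supplemented plates and collection with hypochlorite. The descriptions also carry a line on narrower stages. It names a stage before zygotic genome activation on mutant replicates 1 and 2, and cellularisation on the other arrays. Cellularisation is not a usual stage name for nematode embryos, and the line was not used. Whether these arrays differ in stage as it says was not tested. The labels do not tell whether replicates were grown separately, and the p-values below rest on array-to-array spread that may be technical.

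PAR proteins set up the head-to-tail axis of the worm zygote. PAR-3, PAR-6 and the kinase PKC-3, with the GTPase CDC-42, occupy the anterior cortex, and PAR-1 and PAR-2 occupy the posterior cortex, each group keeping the other away. PAR-4 and PAR-5 are found throughout the cell and are needed for this separation, and GPR-1 and GPR-2 act downstream at the cortex to pull on the mitotic spindle. Most of these mRNAs are loaded into the egg by the mother, and several of the proteins act again later in epithelia and other tissues.

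No PAR polarity gene differed between mutant and wild type embryos past the threshold. By limma, 0 of the 21 features had a Benjamini-Hochberg adjusted p under 0.05, where 0.129% of all features did (0.124% with the mutant higher and 0.00443% with it lower), and the adjusted p ran from 0.471 for a par-4 feature to 0.989 for a par-1 feature. At an unadjusted p under 0.05 there were 2 of 21, 1 higher and 1 lower in the mutant, where 10.2% of all features were below that p (6.23% higher and 3.97% lower). The largest differences were those of 1 par-4 feature, with a higher mutant mean, and of 2 par-2 and 2 par-6 features, with lower mutant means. The differences, given as log2 mutant minus log2 wild type intensity, ran from -0.58 to 0.60. Their median was -0.21, and that of all features was -0.10. With features below the median level left out, the 19 PAR polarity features kept had a median of -0.21, where that of all kept features was -0.0094. A negative difference was seen for 14 of the 21 features, or 66.7%, against 62.2% of all features. The median came to -0.089 without wild type replicate 3, where that of all features was -0.04.

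**Figure D1:**
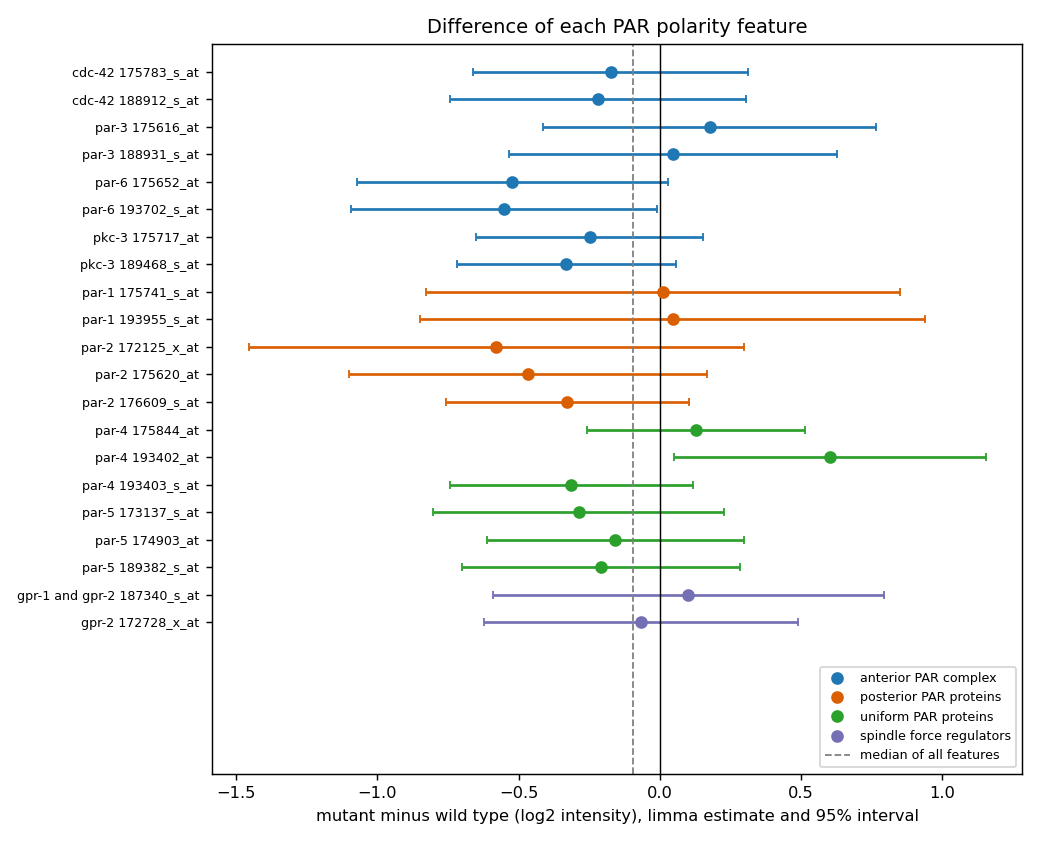
Mutant minus wild type difference in log2 intensity (horizontal axis) of each of the 21 PAR polarity features (rows, gene and probe set), as the limma estimate with its 95% interval. Colours give the role of the protein and the dashed line is the median of all features at -0.10. The interval misses 0 for 1 par-4 feature (193402_at) and 1 par-6 feature (193702_s_at).

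The arrays themselves were not equally alike. Mutant replicates 2 and 3 differed at least 2-fold on 12 features, against 579 and 624 features between mutant replicate 1 and these. With these 2 averaged and counted as 1 array, 0 features of the whole array passed the threshold. Wild type replicate 3 differed that much from the other arrays on 1643 to 3841 features, and wild type replicate 2 differed from mutant replicates 2 and 3 on 583 and 543 features but from wild type replicate 1 on 1417. Summed over all features, the intensity was 11960820 on wild type replicate 3, against 9638666 to 9803563 on the other arrays. High values on that array are therefore not particular to the genes described below. Of marker lists for the stages and tissues such embryos could hold, 15 of 16 oocyte and early embryo genes, 6 of 9 early zygotic genes, 7 of 7 muscle genes and 8 of 8 epidermal genes had a level above the median of all features. Among 10 yolk and sperm genes 3 did, and their median percentile of level was 40. Levels of different probe sets are not on a common scale and the table gives no detection call, so these counts do not show which markers were present. In RNA from whole embryos a smaller share of a cell type or stage and less RNA per cell cannot be told apart.

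Of the anterior group, par-6 stood lowest in the mutant relative to wild type. It encodes a PDZ-domain adaptor that brings the kinase PKC-3 to its partners. Its feature 193702_s_at read 8.84, 9.01 and 8.90 on mutant replicates 1, 2 and 3, against 9.42, 9.07 and 9.92 on wild type replicates 1, 2 and 3 (log2 intensity, as all levels below). Every mutant array lay below every wild type array, with wild type replicate 2 only just above the highest mutant one. The second feature, 175652_at, read 7.91, 8.38 and 8.34 in the mutant, against 8.67, 8.41 and 9.12 in wild type. It showed the same order, again with no overlap, wild type replicate 2 nearest the mutant arrays and wild type replicate 3 highest.

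The difference was -0.55 ± 0.23 (SE, n = 3 arrays each) on 193702_s_at, where the mutant was 1.47-fold lower, with a 95% interval of -1.09 to -0.01 and a limma adjusted p of 0.488. On 175652_at it was -0.52 ± 0.24, 1.44-fold lower, with an interval of -1.07 to 0.03 and an adjusted p of 0.504. Thus both par-6 readings missed the threshold. Without wild type replicate 3 the differences were -0.33 on each feature. With wild type replicate 2 as the only wild type array they were -0.15 and -0.20.

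The kinase gene pkc-3, which encodes the atypical protein kinase C that removes posterior proteins from the anterior cortex, also had lower mutant means. Feature 189468_s_at read 8.41, 8.59 and 8.38 in the mutant, against 8.97, 8.64 and 8.77 in wild type. The groups did not overlap on it, the highest mutant array and wild type replicate 2 being close neighbours. Feature 175717_at read 9.62, 9.84 and 9.87 in the mutant, against 10.22, 9.999 and 9.86 in wild type. On this one mutant replicate 3 lay just above wild type replicate 3. The differences were -0.33 ± 0.17 and -0.25 ± 0.17 (SE, n = 3 each), with limma adjusted p of 0.529 and 0.597. Unlike par-6, pkc-3 was highest on wild type replicate 1 on both features, and without wild type replicate 3 its differences were -0.34 and -0.33.

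The 3 features with no overlap between the groups, 2 of par-6 and 1 of pkc-3, make 14.3% of the 21. Over all features 15.5% had none, with the mutant higher in 6.16% and lower in 9.37%. The share among the PAR polarity features is near that of the array as a whole.

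The scaffold gene par-3, whose PDZ-domain product organizes the anterior complex, had positive differences on both features. Feature 175616_at read 8.99, 9.66 and 9.83 in the mutant, against 9.29, 9.55 and 9.10 in wild type. Mutant replicate 1 was the lowest array of all and mutant replicates 2 and 3 were the highest, so the mutant spanned the whole wild type range. Feature 188931_s_at had the same lowest and highest arrays. The differences were 0.18 ± 0.25 and 0.05 ± 0.25 (SE, n = 3 each), with limma adjusted p of 0.746 and 0.931. The sign of the second was negative after each array was centred on its median (-0.081), and when mutant replicate 2, mutant replicate 3 or wild type replicate 3 was left out.

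The small GTPase gene cdc-42, whose product binds PAR-6 and activates the anterior complex, overlapped between the genotypes on both features. Its 2 features ranged over 9.87 to 10.20 and 10.39 to 10.99 in the mutant, against 9.92 to 10.56 and 10.68 to 11.20 in wild type. Both were highest on wild type replicate 3 and lowest on mutant replicate 3. The differences were -0.17 ± 0.21 and -0.22 ± 0.23, with limma adjusted p of 0.706 and 0.671. Without wild type replicate 3 they were 0.0026 and -0.060. The gene lies on chromosome II of assembly WBcel235, as do pkc-3 and the deleted microRNA cluster, with 904 protein-coding genes between cdc-42 and the cluster and 1468 between pkc-3 and the cluster.

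Among the posterior genes, par-2 showed a split inside the wild type group. Its product is a RING-finger protein that holds the posterior domain and shields PAR-1 from PKC-3. Feature 172125_x_at read 7.50, 7.71 and 7.45 in the mutant, against 8.22, 7.27 and 8.91 in wild type. Wild type replicates 1 and 3 were above every mutant array, and wild type replicate 2 was below every one. The suffix of 172125_x_at is used by Affymetrix for sets with probes shared with other sequences, so it may not read par-2 alone. Feature 175620_at read 7.33, 7.48 and 7.32 in the mutant, against 8.09, 7.22 and 8.23 in wild type, the same pattern with a smaller span. The remaining feature, 176609_s_at, read 7.60, 7.19 and 7.34 in the mutant, against 7.60, 7.60 and 7.92 in wild type. On it the deposited intensity was the same number on mutant replicate 1 and wild type replicates 1 and 2, and the wild type split was not seen. Such equal values on at least 2 arrays occurred in 20.9% of all features.

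The par-2 differences were -0.58 ± 0.38, -0.47 ± 0.27 and -0.33 ± 0.19 (SE, n = 3 each), with limma adjusted p of 0.588, 0.571 and 0.560. The intervals of the first and second, -1.46 to 0.30 and -1.10 to 0.17, both hold 0. Leaving out wild type replicate 2 brought the difference of 175620_at to -0.78 with an adjusted p of 0.0443, in a fit that called 1289 features over the whole array. With wild type replicate 2 as the only wild type array the first 2 differences were 0.28 and 0.16. The sign of these 2 readings thus depends on which wild type arrays are used.

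The list of 16 oocyte and early embryo markers was split in the same way. Its median deviation from the feature means was -0.26, -0.20 and -0.35 on mutant replicates 1, 2 and 3, against 0.48, -0.19 and 0.44 on wild type replicates 1, 2 and 3. Its summed intensity was 12161 to 13157 in the mutant and 12571 to 21828 in wild type, with wild type replicate 2 at the low end. The highest sum was that of wild type replicate 3, which also had the largest summed intensity over all features. The part of these markers in the par-2 and par-6 values was not tested.

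For par-1, the spread within the mutant came mainly from 1 array. The gene encodes the posterior serine-threonine kinase that controls where cytoplasmic fate regulators gather. Feature 175741_s_at read 8.06, 9.43 and 9.39 in the mutant, against 8.79, 9.01 and 9.05 in wild type. Mutant replicate 1 was lowest of all 6 arrays and mutant replicates 2 and 3 highest. Feature 193955_s_at read 7.54, 8.89 and 8.64 in the mutant, against 8.77, 8.31 and 7.85 in wild type, with mutant replicate 1 again lowest. The mutant range was 1.37 and 1.35 on the log2 scale, wider than on any other of the 21 features. The wild type range was 0.26 on 175741_s_at and 0.92 on 193955_s_at, so wild type was also spread on the latter.

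The par-1 differences were 0.01 ± 0.36 and 0.05 ± 0.38 (SE, n = 3 each), with limma adjusted p of 0.989 and 0.957 and intervals of -0.83 to 0.85 and -0.85 to 0.94. Without mutant replicate 1 they were 0.46 and 0.45. Without mutant replicate 2 they were -0.22 on each, and without mutant replicate 3 they were -0.20 and -0.10. The muscle marker list was also lowest on mutant replicate 1, with a median deviation of -0.69, against 0.45 and 0.08 on mutant replicates 2 and 3 and -0.25 to 0.31 on the wild type arrays. The part of these markers in the par-1 and par-3 values was not tested.

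**Figure D2:**
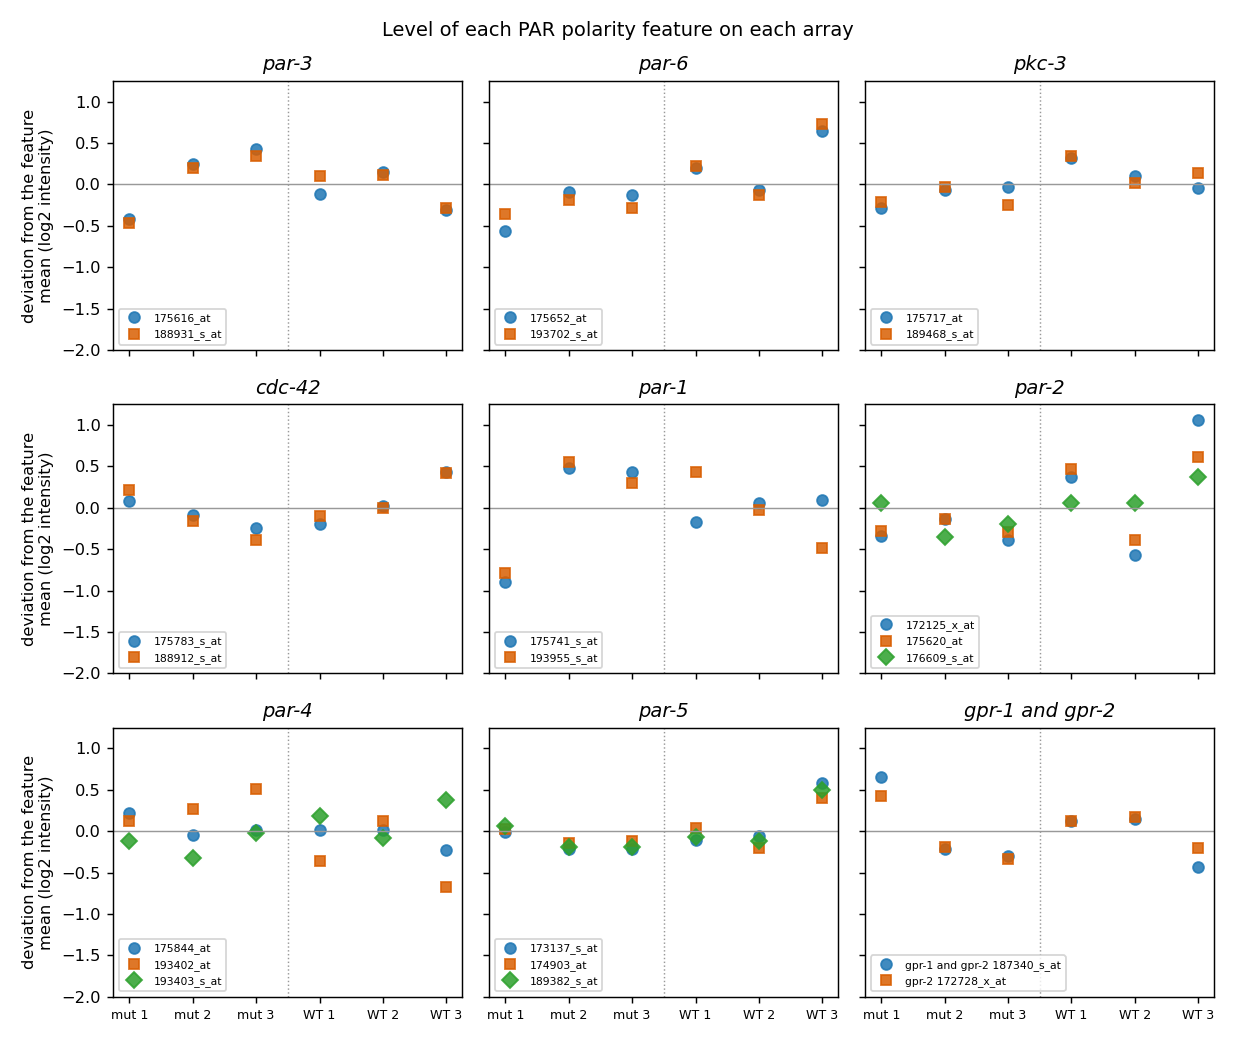
Deviation of each array from the mean of its feature (vertical axis, log2 intensity) for the 21 PAR polarity features, a panel per gene (gpr-1 and gpr-2 together), with the 3 mutant arrays left of the dotted line and the 3 wild type arrays right of it. Marker shape and colour tell the features of a gene apart. The par-1 features drop on mutant replicate 1, the par-5 and cdc-42 features are highest on wild type replicate 3, and 2 of the 3 par-2 features are high on wild type replicates 1 and 3.

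Of the uniformly distributed proteins, PAR-4 is the worm counterpart of the tumour suppressor kinase LKB1. Its feature 193402_at had the largest difference of the 21. It read 7.26, 7.40 and 7.65 in the mutant, against 6.78, 7.27 and 6.47 in wild type. The groups touched, since wild type replicate 2 was just above mutant replicate 1, and wild type replicates 1 and 3 were below all mutant arrays. The mutant mean was 7.44 ± 0.20 and the wild type mean 6.84 ± 0.40 (SD, n = 3 each), a difference of 0.60 ± 0.24 (SE), or 1.52-fold, with an interval of 0.05 to 1.15 and a limma adjusted p of 0.471. Without wild type replicate 3 it was 0.42, and against wild type replicate 2 alone it was 0.17.

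The other par-4 features were dim and did not repeat this. Feature 175844_at read 4.29, 4.02 and 4.08 in the mutant, against 4.08, 4.08 and 3.84 in wild type. Feature 193403_s_at read 4.06, 3.85 and 4.15 in the mutant, against 4.36, 4.09 and 4.55 in wild type. They lay at the 11.4 and 13.8 percentile of level among all features, against 57.5 for 193402_at, and whether they read par-4 above background was not tested. Their differences were 0.13 ± 0.17 and -0.31 ± 0.19, opposite in sign to each other (limma adjusted p = 0.722 and 0.573). The par-4 value therefore rests on 1 feature of 3.

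PAR-5 is a 14-3-3 protein, which binds phosphorylated partners and keeps anterior and posterior domains apart. Its features 173137_s_at, 174903_at and 189382_s_at ranged over 12.11 to 12.31, 11.88 to 12.04 and 12.83 to 13.08 in the mutant, against 12.22 to 12.91, 11.82 to 12.42 and 12.90 to 13.51 in wild type. On all 3, wild type replicate 3 was the highest array and the other 5 lay close together. The differences were -0.29 ± 0.22, -0.16 ± 0.20 and -0.21 ± 0.21 (SE, n = 3 each), with limma adjusted p of 0.613, 0.712 and 0.668. Without wild type replicate 3 they were -0.066, 0.0023 and -0.013. After quantile normalization was run again, 174903_at and 189382_s_at differed by 0.077 and 0.044.

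The spindle regulators GPR-1 and GPR-2 are near-identical GoLoco proteins that link G-alpha subunits to the force-generating complex. Feature 187340_s_at names both genes and cannot tell them apart, and 172728_x_at names gpr-2 and carries the suffix Affymetrix uses for sets with probes shared with other sequences, so neither gene has a value of its own that is sure. The shared feature read 9.98, 9.11 and 9.02 in the mutant, against 9.45, 9.47 and 8.89 in wild type. The gpr-2 feature read 10.17, 9.55 and 9.40 in the mutant, against 9.87, 9.91 and 9.54 in wild type. On both, mutant replicate 1 was the highest array, the opposite of its place for par-1 and par-3.

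The differences were 0.10 ± 0.30 on the shared feature and -0.066 ± 0.24 on that of gpr-2 (SE, n = 3 each), with limma adjusted p of 0.873 and 0.900. The intervals were -0.59 to 0.79 and -0.62 to 0.49. Without mutant replicate 1 the differences were -0.20 and -0.30. Centring of the arrays turned the first to -0.028.

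Replicate arrays of the PAR polarity features differed by about as much within the mutant as elsewhere on the array, and by the same in wild type. The median range over 3 arrays was 0.33 in the mutant and 0.58 in wild type for the 21 features, and 0.28 in the mutant and 0.58 in wild type for all features. The wild type range was the wider for 12 of 21, or 57.1%, against 78.3% of all features. Wild type replicate 3 was the highest array for 11 of 21 (52.4%, all features 41.9%). Mutant replicate 1 was the lowest for 7 of 21 (33.3%, all features 14.4%), these being the features of par-1, par-3 and par-6 and 1 of pkc-3. That was not particular to them. Among the further polarity genes described below, at 1 feature per gene, it was the lowest for 20 of 59 (33.9%, all genes 13%).

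By role, the median deviation from the feature means was -0.32, -0.08 and -0.19 for the 8 anterior features on mutant replicates 1, 2 and 3, against 0.15, 0.02 and 0.28 on wild type replicates 1, 2 and 3. For the 5 posterior features it was -0.34, -0.13 and -0.20 in the mutant, against 0.38, -0.03 and 0.38 in wild type. The medians of the difference were -0.23 for the anterior, -0.33 for the posterior, -0.18 for the uniform and 0.018 for the spindle group. The posterior value is that of par-2, as 3 of the 5 features are par-2 and the other 2 are par-1.

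**Figure D3:**
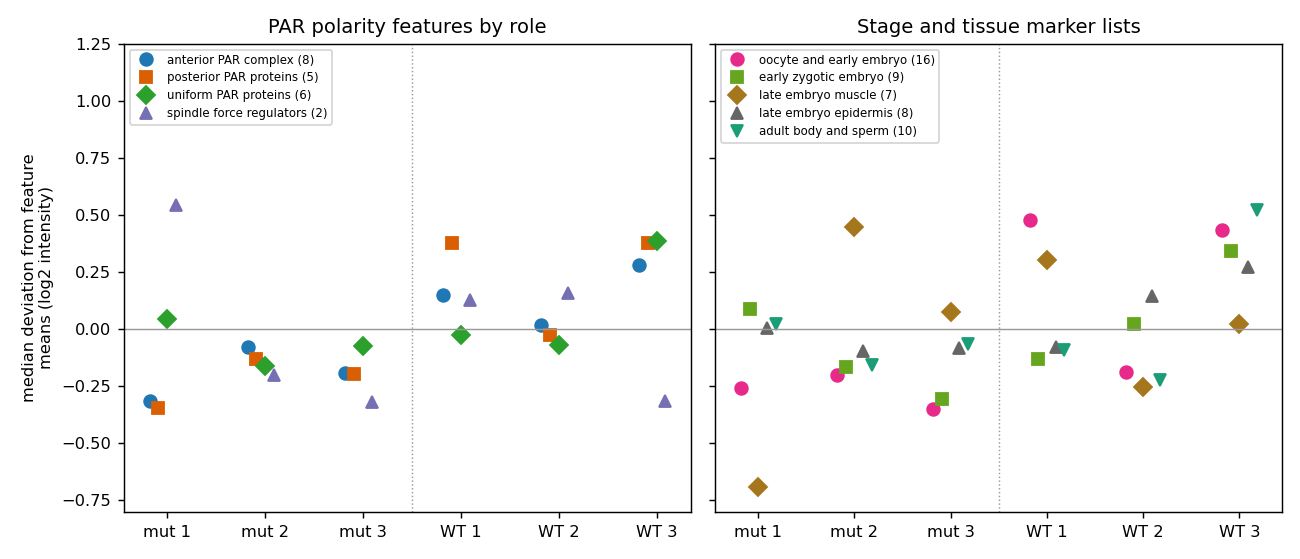
Median deviation from the feature means (vertical axis, log2 intensity) on each array, with mutant arrays left of the dotted line, for the PAR polarity features by role (left panel) and for marker lists of stages and tissues (right panel), with the number of features in brackets. Oocyte markers are high on wild type replicates 1 and 3 at 0.48 and 0.44, muscle markers are low on mutant replicate 1 at -0.69, and the 2 spindle features are high on that array at 0.54.

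The table's own gene ontology entries describe what the 10 genes share. The component term cell cortex is given to 9 of the 10 genes, all but par-3, against 0.348% of 14090 annotated genes. The process term for establishment or maintenance of cell polarity is given to par-3, par-6, pkc-3 and cdc-42, and to 12 genes in all. The term for asymmetric protein localization in cell fate determination is given to par-1, par-2, par-4 and par-5, and to 17 genes in all. Receptor-mediated endocytosis is given to 7 of the 10 genes, among them par-3, par-6, pkc-3 and cdc-42, against 5.51% of annotated genes.

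Of 60 further polarity genes listed in 5 groups, 59 had a feature of their own, and 0 passed the threshold in either direction by limma. Over all 120 features that name them, 6 were higher and 6 lower in the mutant at an unadjusted p under 0.05, or 10%, where the array had 10.2%. In the fit without wild type replicate 2, 11 of the 120 passed, 9 higher and 2 lower, where 1289 of all 22548 features did, 1096 higher and 193 lower. At 1 feature per gene, 36 of 59 had a negative difference, or 61%, against 62.5% of all genes, and the median was -0.10, the same as that of all genes to 2 decimals. Of these 59, the groups did not overlap for 1 gene higher and 8 lower in the mutant, or 15.3%. Among all 17137 genes the share was 15.7%, with 1093 higher and 1604 lower. The share among the further polarity genes is near that of all genes.

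The cortical tension group, the actomyosin machinery whose flow carries anterior proteins forward, had 12 genes with a median difference of -0.055, 5 positive and 7 negative. The groups did not overlap for 3 of the 12, all lower in the mutant, which is 25%. Among all genes it was 15.7% in either direction, and 1604 of 17137 with the mutant lower. The non-muscle myosin gene nmy-2 read 9.04, 9.87 and 10.12 in the mutant, against 8.32, 9.27 and 8.61 in wild type, a difference of 0.94 ± 0.34 (SE, limma adjusted p = 0.451) with overlap at mutant replicate 1.

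The 8 genes listed as cytoplasmic targets all had negative differences, where 62.5% of all genes did. Their median was -0.27, with limma adjusted p of 0.490 to 0.929. The germline repressor gene pie-1 read 8.78, 8.78 and 8.66 in the mutant, against 9.47, 8.80 and 10.01 in wild type, a difference of -0.68 ± 0.29 (SE). Wild type replicates 1 and 3 were the high ones, as on 2 of the 3 par-2 features. Wild type replicate 2 lay just above the mutant arrays here, so the groups did not overlap. The zinc-finger genes mex-5 (-0.34) and pos-1 (-0.27) and the kinase gene mbk-2 (-0.25) overlapped between the groups.

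Of the 14 spindle positioning genes, 10 had negative differences, with a median of -0.23. The gene lin-5, whose product binds GPR-1 and GPR-2 and recruits dynein, read 10.31, 10.28 and 10.35 in the mutant, against 10.63, 10.79 and 10.56 in wild type. The difference of -0.34 ± 0.15 (SE) had no overlap between the groups and a limma adjusted p of 0.498. The gene let-99, whose product limits GPR-1 and GPR-2 to part of the cortex, differed by -0.40 ± 0.17 (adjusted p = 0.489), also with no overlap. The dynactin genes dnc-1 and dnc-6 differed by 0.74 and -0.26, in opposite directions, with adjusted p of 0.564 and 0.577. The groups overlapped for dnc-1 and did not for dnc-6.

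The 17 measured PAR regulators had a median difference of 0.06, with 9 positive and 8 negative. The CDC-42 exchange factor gene cgef-1 read 10.31, 10.41 and 10.29 in the mutant, against 10.09, 9.93 and 9.73 in wild type, a difference of 0.41 ± 0.16 with no overlap (limma adjusted p = 0.474). The chaperone genes cdc-37 (-0.63) and daf-21 (-0.42) and the gene strd-1 (-0.31), a cofactor of PAR-4-type kinases, overlapped between the groups, with adjusted p of 0.504, 0.570 and 0.574. The 8 junction and epithelial genes had a median of 0.14. The beta-catenin gene hmp-2 differed by -0.42 ± 0.16 with no overlap and its junction partner alpha-catenin gene hmp-1 by 0.82 ± 0.36 with overlap (adjusted p = 0.459 and 0.497). The membrane linker gene erm-1 differed by 0.24 and the Crumbs gene crb-1 by -0.25.

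**Figure D4:**
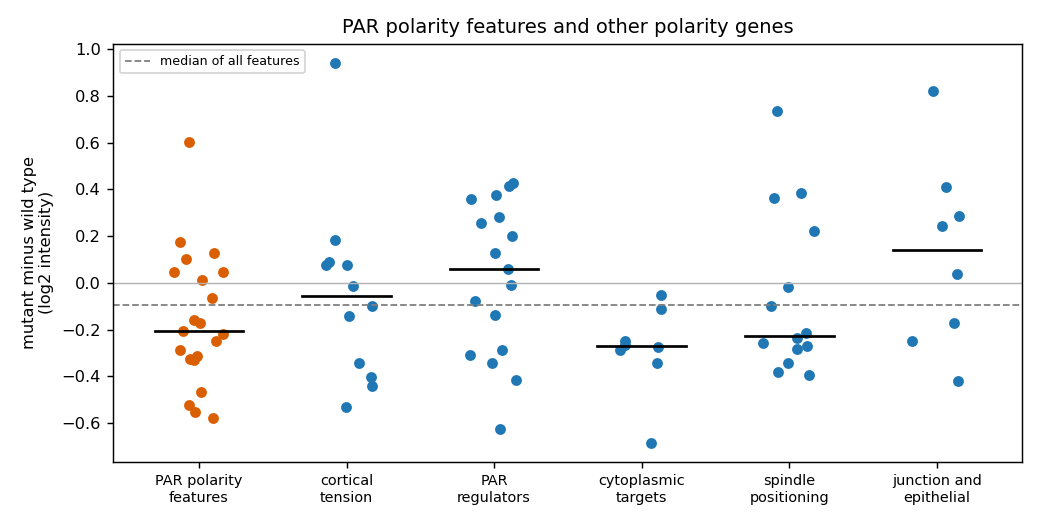
Mutant minus wild type difference in log2 intensity (vertical axis) of the 21 PAR polarity features (orange) and of other polarity genes in 5 groups, 1 feature per gene (blue). Horizontal bars are group medians and the dashed line is the median of all features at -0.10. The PAR polarity features spread on both sides of that line around a median of -0.21. All 8 cytoplasmic targets lie below 0, as do 62.5% of all genes.

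The profile of the PAR polarity features over the 6 arrays was matched against every other single-gene feature by the root mean square difference between centred log2 levels. Their mean profile was -0.14, -0.04 and -0.06 on mutant replicates 1, 2 and 3, against 0.09, -0.03 and 0.18 on wild type replicates 1, 2 and 3. The nearest of 20845 features was that of twk-4, a potassium channel gene of the TWiK family, at 0.0144. Next were C31H1.7 at 0.0161, F58F9.6 at 0.0198, an entry named only Glycoprotein at 0.0219, and Y54G2A.27 at 0.0239. The median feature lay at 0.254. Each of these 5 nearest features had equal values on at least 2 arrays, as 20.9% of all features did. Such ties were more frequent among dim features than among bright ones. The mean profile is also nearly flat, and averages features with opposite places on mutant replicate 1, such as those of par-1 and gpr-2. Nearness to it therefore does not show that a gene follows the single PAR polarity genes. For the par-4 feature 193402_at the nearest were D1054.3 at 0.0528, H14A12.5 at 0.0547 and vps-35, a retromer subunit gene, at 0.0580, against a median of 0.510. The vps-35 feature differed by 0.60 between the genotypes with a limma adjusted p of 0.471.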

How the data were processed

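Total RNA was hybridised to 1-colour Affymetrix arrays. The main table the authors deposited gives linear intensity already normalized, with gene annotation. Their other deposited table gives log2 of those same values (largest gap 5.63e-06). Affymetrix Expression Console produced them, per the submitters' processing notes. Its version and its normalization method were not given in the sources used here. A change shared by most genes could have been normalized away. Differences between arrays also remained, the median log2 intensity being 6.29 on wild type replicate 3 and 6.43 to 6.56 on the other arrays. Of 22625 probe sets 77 controls were left out. Log2 intensities of 22548 features entered one linear model (limma 3.58.1, R 4.3.3, eBayes, two-sided, no block), p-values being adjusted by Benjamini-Hochberg across all of them, with no filter on dim ones. The fit was tested on simulated data. Intensities carry no counts, and the number of arrays, 3 per group, limits the precision.

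Names were updated through a RefSeq table of assembly WBcel235, where 16045 features were found under their symbol, 3566 under their sequence name and 1254 not at all, the last keeping the file's name. The files name no genome build, so no coordinates are given, and sequences were not used here. The members and lists were chosen with earlier results of these data known. Further polarity genes and markers are represented by the single-gene feature with the highest mean level. The text names all members, the 5 and 3 nearest profiles and, of each group of further genes, the 4 of smallest p, except in the cortical tension group, where some of these are not reported here and the group's counts are given. Alternatives left out each array in turn, left out wild type replicates 1 and 3 together, averaged mutant replicates 2 and 3, added the replicate block, used the log2 table, repeated quantile normalization, centred arrays on their medians, and tried removal of features below the median level, 16 added before log2, and an intensity trend with a robust prior. An array weighting estimated gene by gene was chosen after seeing the data.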

Additional observations from a re-analysis of the deposited data

How the results depend on the processing

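The count of PAR polarity features past the threshold stayed at 0 in 14 of 16 alternatives. Leaving out each array gave 0 to 1, and gene-by-gene array weights gave 1, the par-4 feature 193402_at, in a fit that called 3608 features. Over all features the 29 calls became 0 to 1289 with an array left out, 19 with the replicate block, 3 after quantile normalization again, 50 after centring, 8 with 16 added, 46 with an intensity trend, and 0 with mutant replicates 2 and 3 averaged or wild type replicates 1 and 3 left out together. Centring moved the median of all features to -0.22. The replicate block gave 0 calls among the PAR polarity features, as the fit without the pairing did. Deviations of same-numbered arrays correlated at -0.032, 0.072 and -0.176, so the numbers were not taken to pair the arrays. The 0 calls among the further polarity genes became 0 to 11 with an array left out and 22 with gene-by-gene array weights. The planned array weights did not converge and were not used. The median of the PAR polarity features lay between -0.34 and -0.075 over the alternatives.

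Of 21 features, 9 kept the sign of their difference throughout: both of par-6 and of pkc-3, par-2 176609_s_at, par-4 193402_at and 193403_s_at, par-5 173137_s_at and cdc-42 188912_s_at. With an array left out, the difference ran from -0.32 to 0.0026 for cdc-42 175783_s_at, -0.11 to 0.29 for par-3 188931_s_at, -0.22 to 0.46 for par-1 175741_s_at, -0.22 to 0.45 for par-1 193955_s_at, -0.30 to 0.0023 for par-5 174903_at, -0.20 to 0.27 for the shared gpr-1 and gpr-2 feature, and -0.30 to 0.087 for the gpr-2 feature. With wild type replicates 1 and 3 left out together, signs turned for both par-3 features (-0.063 and -0.086), par-1 175741_s_at (-0.051), 2 par-2 features (0.28 and 0.16), 2 par-5 features (0.12 and 0.013) and the shared gpr feature (-0.098). Centring turned par-3 188931_s_at (-0.081), the par-1 features (-0.12 and -0.083), par-4 175844_at (-0.0005) and the shared gpr feature (-0.028). Quantile normalization again turned the par-1 features (-0.021 and -0.053) and 2 par-5 features (0.077 and 0.044). With mutant replicates 2 and 3 averaged, par-3 188931_s_at (-0.076), the par-1 features (-0.21 and -0.16) and the gpr-2 feature (0.050) turned, and gene-by-gene weights turned par-4 175844_at (-0.005) and the shared gpr feature (-0.31). The causes were not tested.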
